A study of Mus musculus with 6 samples.

Results

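The mouse TRIM30 and TRIM5-like cluster is a run of closely related genes on chromosome 7, and 8 of them are described here in microglia of lupus-prone mice: Trim34a, Trim5, Trim12a, Trim12c, Trim30b, Trim30c, Trim30a and Trim30d. They were taken by symbol from the 55401 genes of the deposited count table. The members were selected on family membership and position with the counts of both strains in these same libraries in view, so the members' values in that comparison are given as a description, without a test. Microglia were isolated from brains of MRL/lpr mice, a lupus model carrying the lpr mutation of the death receptor gene Fas, and of the MRL/mpj control strain, and their RNA was sequenced. Each strain had 3 libraries from untreated mice aged 6 weeks, and the cells were enriched by selection for the surface protein CD11b, which other myeloid cells also carry. The study describes its replicates as mice, while the labels name no animals. The SDs of levels given here are the spread between these libraries. The SE of a log2 fold change is instead taken from the edgeR fit, as its size divided by the root of the F statistic. That fit draws on all genes tested to estimate the variation of each.

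TRIM proteins are ubiquitin ligases built from a RING domain, a B-box and a coiled coil, and many of them take part in defence against viruses. The genes of this cluster are the rodent relatives of primate TRIM5, whose protein recognizes the capsid of incoming retroviruses. Several are induced by interferon, and Trim30a is known as a brake on Toll-like receptor and NF-kB signalling in myeloid cells, where it promotes the loss of the adaptor proteins TAB2 and TAB3.

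The cluster did not differ between the strains in one direction. In MRL/lpr microglia Trim12a was nearly absent, Trim30d and Trim5 were far below their MRL/mpj levels, and Trim30c was 8.9 times higher, while Trim30a and Trim12c were 1.9 and 2.0 times higher. Trim34a and Trim30b had smaller differences. All 8 genes had enough counts to enter the fit over 19554 genes, and the threshold used for all genes (adjusted p under 0.05 in edgeR's quasi-likelihood test) put 3 of them among the genes called higher and 3 among those called lower in MRL/lpr. This count is a description and not a test of the members. Over all genes tested, 11.1% were called higher, 9.06% lower and 20.2% in either direction, and nothing is read from the members' counts beside these shares because the list was chosen with this contrast known. In counts scaled to library size, the 3 libraries of MRL/lpr all lay above the 3 of MRL/mpj for 3 members and all below for 4. Of the genes tested, 19.6% lay above, 19.4% below and 39.0% in either direction. The median log2 fold change of the members was -0.32, and that of all genes tested was -0.009.

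In annotation GENCODE M21 on mouse build GRCm38, the members span 263.4 kb, from the start of Trim34a at chromosome 7 position 104244457 to the end of Trim30d at 104507849. Trim34a lies on the plus strand and the other 7 on the minus strand. Genes with opposite differences stand side by side: Trim12a, with the lowest fold change, has Trim34b as the one TRIM gene between it and Trim12c, and Trim30d, with the next lowest, is the next TRIM gene after Trim30a.

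**Figure D1:**
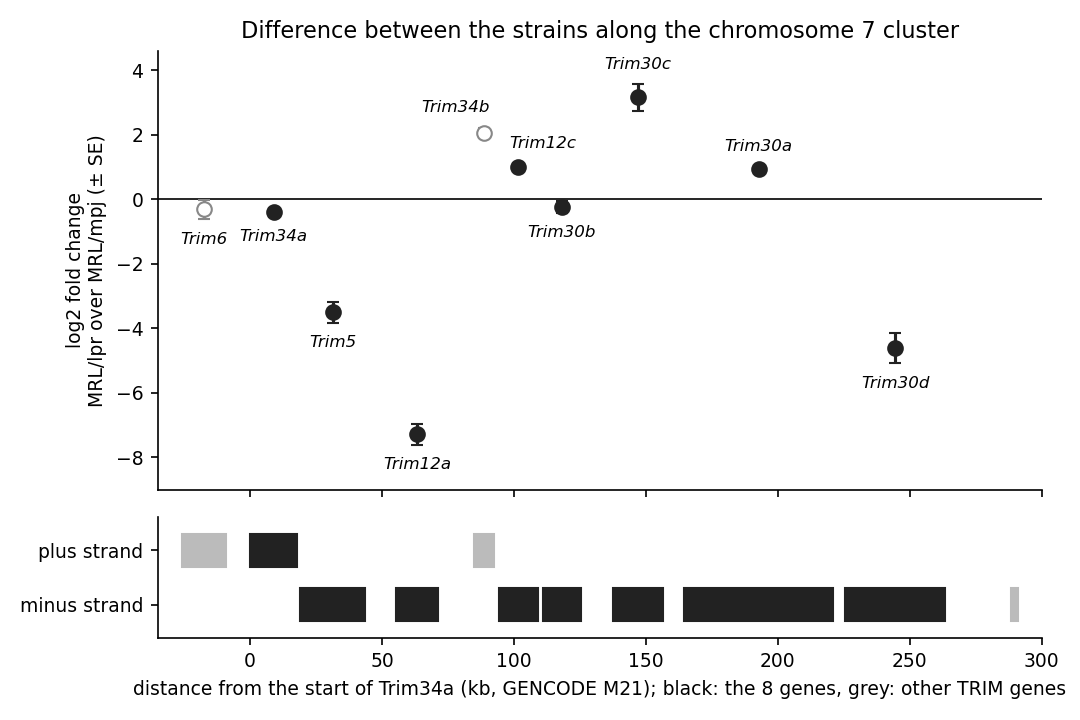
The upper panel plots the log2 fold change of MRL/lpr over MRL/mpj (± SE) of each tested TRIM gene of the cluster against the distance of the gene's middle from the start of Trim34a in kb, with filled points for the 8 genes and open points for Trim6 and Trim34b. The lower panel shows the genes to scale on their strands, and values run from -7.28 for Trim12a to 3.15 for Trim30c with both directions interleaved.

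The genes are copies of one another to different degrees, which bears on how reads can be assigned. In the coding sequences of the reference, Trim5 and Trim12a were identical at 97.1% of aligned bases, Trim5 and Trim12c at 96.6%, and Trim12a and Trim12c at 96.4%. Trim34a and its relative Trim34b were identical at 97.7%. Trim30a and Trim30d matched at 90.0%, and Trim30c matched Trim30d at 83.1% and Trim30a at 82.2%. Coding length ranged from 609 bases in Trim30b and 891 in Trim12a to 1539 in Trim30c.

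**Figure D2:**
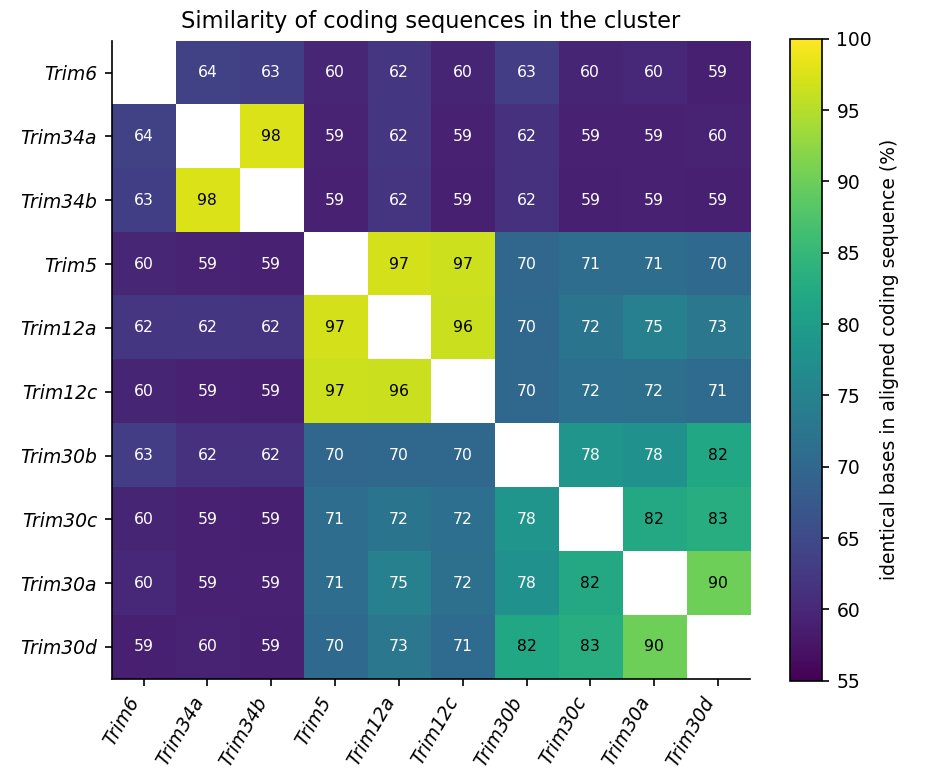
Each cell gives the percentage of identical bases between the aligned reference coding sequences of a pair of cluster genes, on a colour scale from 55% to 100%. Blocks stand out, with Trim34a and Trim34b, then Trim5, Trim12a and Trim12c, each at 96% or more within the block, and the Trim30 genes at 78% to 90%.

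The upstream windows of the genes with opposite differences are shown because they are nearly the same sequence. They are RefSeq windows of 300 bases around the annotated start on GRCm38.p6, a C57BL/6J reference and not an MRL genome, printed 5′ to 3′ on the gene's strand. Capitals mark the letters matching GAAANNGAAA (any base at N), a form of the element bound by interferon regulatory factors, here read on the opposite strand.
Trim12a, chr7:104315446-104315745, minus strand: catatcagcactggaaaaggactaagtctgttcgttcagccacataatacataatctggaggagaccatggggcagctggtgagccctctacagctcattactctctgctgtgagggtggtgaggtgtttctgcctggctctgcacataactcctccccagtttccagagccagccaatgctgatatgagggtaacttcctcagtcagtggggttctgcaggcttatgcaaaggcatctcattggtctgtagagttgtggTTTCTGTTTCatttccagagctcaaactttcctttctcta
Trim12c, chr7:104353300-104353599, minus strand: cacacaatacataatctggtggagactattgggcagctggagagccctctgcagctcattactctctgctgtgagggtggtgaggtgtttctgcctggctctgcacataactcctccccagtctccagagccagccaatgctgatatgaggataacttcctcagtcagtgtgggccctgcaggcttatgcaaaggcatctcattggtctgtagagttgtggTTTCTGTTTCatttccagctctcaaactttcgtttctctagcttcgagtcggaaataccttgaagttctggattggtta
Trim30d, chr7:104507800-104508099, minus strand: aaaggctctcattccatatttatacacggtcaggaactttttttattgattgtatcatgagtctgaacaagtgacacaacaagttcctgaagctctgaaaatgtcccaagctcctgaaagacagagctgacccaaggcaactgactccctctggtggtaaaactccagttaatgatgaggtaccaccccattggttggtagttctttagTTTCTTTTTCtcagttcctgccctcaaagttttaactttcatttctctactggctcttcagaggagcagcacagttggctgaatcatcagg
Trim30a, chr7:104465144-104465443, minus strand: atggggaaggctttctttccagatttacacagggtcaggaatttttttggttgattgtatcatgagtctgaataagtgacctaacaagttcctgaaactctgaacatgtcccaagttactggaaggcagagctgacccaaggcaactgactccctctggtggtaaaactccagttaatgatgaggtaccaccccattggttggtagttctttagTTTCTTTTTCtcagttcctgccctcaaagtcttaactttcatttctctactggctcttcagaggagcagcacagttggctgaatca

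Trim12a and Trim12c were identical at 94.6% of 261 overlapping bases of these windows, and Trim30a and Trim30d at 93.6% of 295. The Trim5 window was identical to that of Trim12a over the 241 bases they share. Searched on both strands, the interferon element was found in the windows of Trim34a, Trim5, Trim12a, Trim12c, Trim30a (at both of its RefSeq starts) and Trim30d, and in 3.44% of the 32851 promoter windows of the genome. The 10 letters were TTTCTGTTTC in Trim5, Trim12a and Trim12c, TTTCTTTTTC in Trim30a and Trim30d, and TTTCAGTTTC in Trim34a. Counted from the annotated start as 0, the match began at -36 in Trim30a, -41 in Trim30d, -29 in Trim12c, -49 in Trim5 and 10 in both Trim12a and Trim34a. These letters were not in the windows of Trim30b and Trim30c, nor in those of the relatives Trim34b and Trim6 outside the list. The RefSeq window of Trim30b lies inside the gene as GENCODE draws it, so it does not cover that annotation's start. The element TTCNNNGAA, bound by STAT dimers, was found among the members only in Trim30c and in 8.3% of all windows. Members with the interferon letters therefore included genes higher in MRL/lpr (Trim30a, Trim12c) and genes lower (Trim12a, Trim5, Trim30d). Trim34a, which also had the letters, stood at a log2 fold change of -0.41, and Trim30c, at 3.15, lacked them. The windows of Trim5, Trim12a and Trim12c are near copies, as are those of Trim30a and Trim30d, so their matches are not separate observations.

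Trim30a (ENSMUSG00000030921, chr7:104409025-104465193), the best-studied gene of the cluster, had the highest level of the 8 in both strains. Its counts were 5158, 5388 and 4231 in MRL/lpr against 2783, 2897 and 3056 in MRL/mpj. Every MRL/lpr library was above every MRL/mpj library. In CPM (counts scaled to the size of each library, with TMM factors), it stood at 108 ± 6.7 in MRL/lpr and 56.9 ± 2.45 in MRL/mpj (SD, n = 3 each), a log2 fold change of 0.93 ± 0.08 (SE), or 1.9-fold higher. Leaving out each library in turn gave 0.89 to 0.98.

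Trim30d (ENSMUSG00000057596, chr7:104470014-104507849), whose product is known to restrict a tick-borne flavivirus, went the other way and was the second most abundant member in MRL/mpj per length. Its counts were 29, 74 and 107 in MRL/lpr and 1907, 2188 and 1837 in MRL/mpj. The groups were far apart, and the MRL/lpr libraries themselves differed more than 3-fold. The level was 1.58 ± 0.97 CPM in MRL/lpr and 38.7 ± 4.46 in MRL/mpj (SD, n = 3 each). The log2 fold change was -4.62 ± 0.46 (SE), 24.7-fold lower, and 93 of the genes tested had a lower value. Without MRL/lpr replicate 3, which stands apart from the other libraries in ways given below, it was -5.14.

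Trim30c (ENSMUSG00000078616, chr7:104382065-104400837) was scarce in MRL/mpj and plain in MRL/lpr, with 306, 236 and 251 counts against 37, 49 and 14. The lowest MRL/lpr library thus held more than 4 times the counts of the highest MRL/mpj library. Its log2 fold change was 3.15 ± 0.41 (SE), 8.9-fold higher, and 175 of the genes tested had a higher value. MRL/mpj replicate 3 was the lowest, and without it the log2 fold change was 2.78.

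Trim30b (ENSMUSG00000052749, chr7:104355382-104369884) was the Trim30 gene whose groups overlapped in CPM. In raw counts and in the deposited length-scaled values (FPKM) they did not overlap, so the overlap depends on the scaling. MRL/lpr replicate 3 stood at 5.89 CPM and MRL/mpj replicate 1 at 5.53. It had 210, 234 and 246 counts in MRL/lpr and 284, 328 and 310 in MRL/mpj. In CPM the groups stood at 5.11 ± 0.72 and 6.01 ± 0.52 (SD, n = 3 each), a log2 fold change of -0.24 ± 0.19 (SE). With single libraries left out it ranged from -0.35 to -0.15.

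Trim12a (ENSMUSG00000066258, chr7:104299894-104315466) showed the lowest fold change of the cluster. It had 10, 4 and 2 counts in MRL/lpr against 1009, 914 and 945 in MRL/mpj. The MRL/lpr library with 2 counts was under the floor of 3 counts, at or under which a gene was not taken as detected. In MRL/lpr replicate 1, 1234 genes had 4 counts, against 377 with 3 and 254 with 5, as if each read pair had added 4. On that reading the floor is less than 1 read pair, the MRL/lpr counts of Trim12a are a few pairs at most, and the fold below is correspondingly uncertain. The log2 fold change was -7.28 ± 0.33 (SE), about 156-fold lower, and 46 of the 19554 genes had a lower value. The MRL/lpr level rests on few reads: without MRL/lpr replicate 1, which held most of the counts, the log2 fold change was -8.06.

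Trim5 (ENSMUSG00000060441, chr7:104263386-104288094), the TRIM gene next to Trim12a, had 65, 25 and 42 counts in MRL/lpr and 589, 484 and 628 in MRL/mpj. The groups did not overlap, and the MRL/lpr libraries differed more among themselves in proportion than those of MRL/mpj. The means were 0.97 ± 0.43 and 11.1 ± 1.24 CPM (SD, n = 3 each), with a log2 fold change of -3.51 ± 0.32 (SE), or 11.4-fold lower. Leaving out each library in turn gave -3.85 to -3.21.

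Trim12c (ENSMUSG00000057143, chr7:104338754-104353362), which is known to promote interferon and NF-kB signalling, was instead higher in MRL/lpr. Its counts were 999, 993 and 932 against 591, 510 and 539, and the spread within each strain was small. The means were 21.5 ± 0.66 and 10.7 ± 0.71 CPM (SD, n = 3 each), and the log2 fold change was 1.01 ± 0.11 (SE), or 2.02-fold. The range with single libraries left out was 0.98 to 1.07.

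Trim34a (ENSMUSG00000056144, chr7:104244457-104262234), the member at one end and the only one on the plus strand, had 488, 495 and 388 counts in MRL/lpr and 693, 602 and 761 in MRL/mpj. Its groups did not overlap, and the log2 fold change was -0.41 ± 0.13 (SE). With scaling by library size only, which moved the median of all genes to -0.13, it was -0.53.

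**Figure D3:**
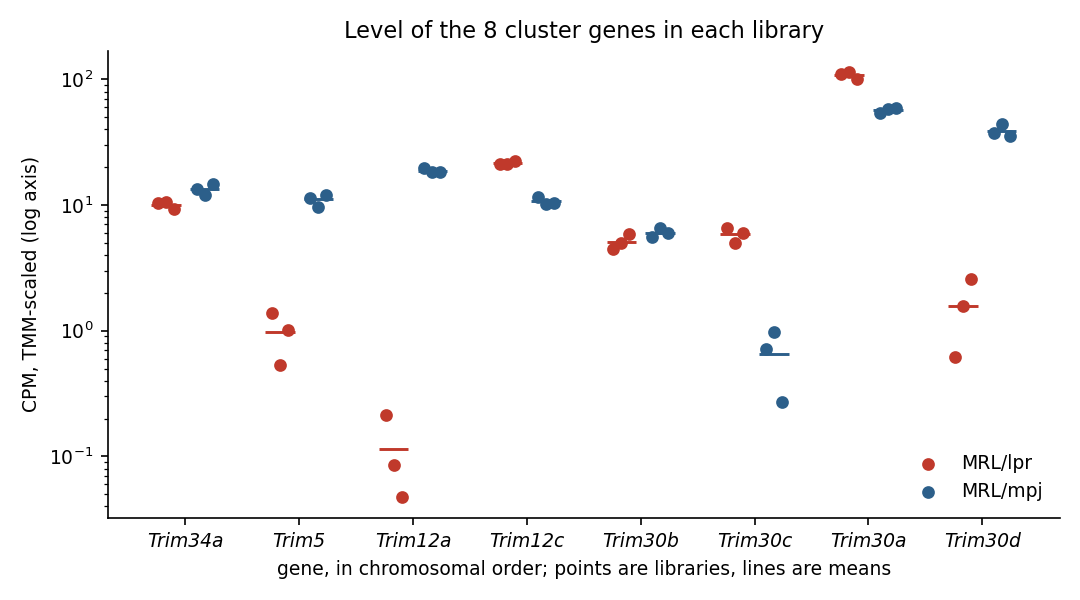
Each point is the TMM-scaled CPM of a gene in a library on a log axis, red for MRL/lpr and blue for MRL/mpj, with lines at the means of 3 libraries. Trim5, Trim12a and Trim30d lie lower in MRL/lpr by more than a factor of 10, Trim30c lies higher, and the points of Trim30b overlap.

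Per gene length the order of the members differed between the strains. In deposited FPKM (fragments scaled to gene length and depth), MRL/mpj microglia ranked Trim30a at 12.9 ± 0.56, Trim30d at 9.58 ± 1.11 and Trim34a at 4.8 ± 0.46, followed by Trim12a at 3.0 ± 0.13, Trim5 at 2.79 ± 0.31 and Trim12c at 2.65 ± 0.17, whose libraries overlapped from one to the next. Trim30b at 0.74 ± 0.07 and Trim30c at 0.35 ± 0.2 came last. In MRL/lpr microglia Trim30a at 22.6 ± 2.06 was followed by Trim12c at 4.92 ± 0.023, and then by Trim34a at 3.31 ± 0.32 and Trim30c at 2.91 ± 0.38, which overlapped. Trim30b, Trim30d and Trim5, at 0.57, 0.35 and 0.22, overlapped from one to the next, and Trim12a was last at 0.017.

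Although single members differed many-fold, the 8 genes summed to 154 ± 5.01 CPM in MRL/lpr and 156 ± 3.0 in MRL/mpj (SD, n = 3 each), a ratio of 0.98. These sums were formed after the members' values had been seen. The sum of 8 leaves out Trim34b of the same cluster, which stood at 12.6 ± 0.84 CPM in MRL/lpr and 3.02 ± 0.21 in MRL/mpj. In summed FPKM the ratio of the 8 genes was 0.95. The 4 Trim30 genes summed to 121 ± 5.17 CPM in MRL/lpr and 102 ± 6.14 in MRL/mpj. Within that sum Trim30d took 0.51% to 2.21% in MRL/lpr and 35.2% to 40.1% in MRL/mpj, and Trim30a took 87.5% to 90.8% and 53.0% to 58.6%. Weighted by length, as shares of summed FPKM, Trim30d made up 0.51% to 2.3% and 38.2% to 42.8% of the Trim30 genes, and the short Trim30c 9.16% to 12.1% and 0.61% to 2.09%. The near-identical Trim5, Trim12a and Trim12c summed to 22.6 ± 0.84 and 40.4 ± 2.22 CPM, a ratio of 0.56. Trim12c made up 93.0% to 97.2% of them in MRL/lpr and 25.5% to 27.0% in MRL/mpj. In CPM the gain of Trim12c was smaller than the combined shortfall of Trim5 and Trim12a. The part of read assignment among these copies was not tested.

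**Figure D4:**
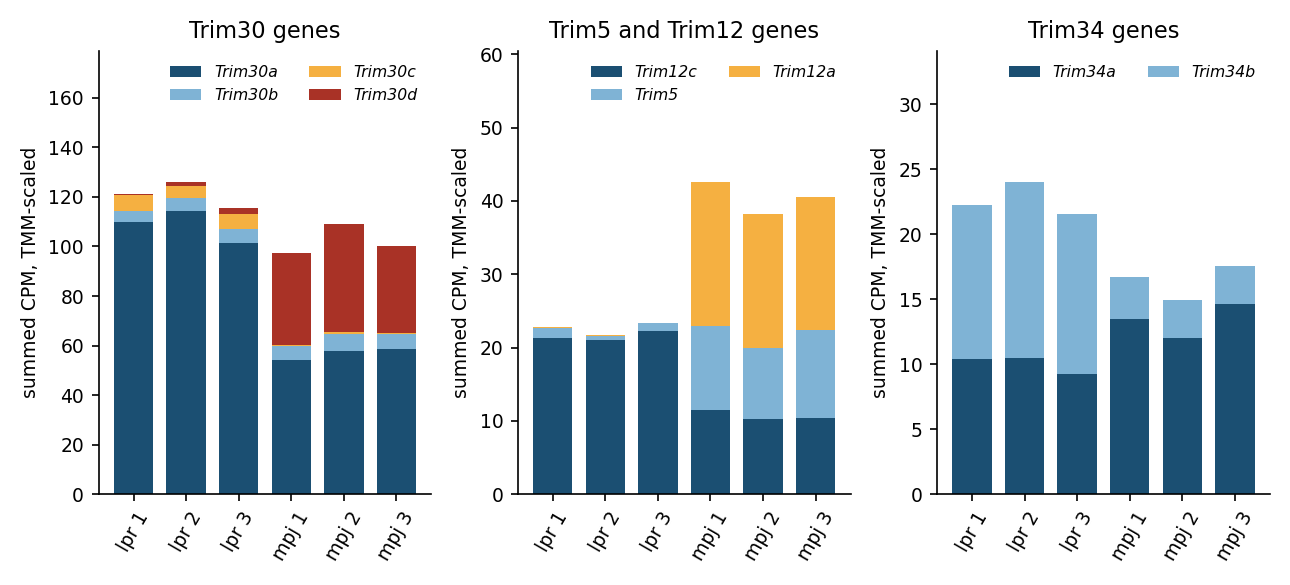
Stacked bars give the TMM-scaled CPM of each gene in each library, from 0, for the Trim30 genes, for Trim5, Trim12a and Trim12c, and for Trim34a and Trim34b. The Trim30 and Trim34 sums are higher in MRL/lpr and the Trim5 and Trim12 sum is lower, and in each panel the make-up of the bars differs between the strains.

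A gene of the cluster outside the list, Trim34b, had 560, 636 and 513 counts in MRL/lpr and 168, 145 and 151 in MRL/mpj. It was 4.15-fold higher in MRL/lpr (log2 fold change 2.05 ± 0.16, adjusted p = 2.1e-05 in edgeR's quasi-likelihood test, adjusted by Benjamini-Hochberg). Together with its near-identical relative Trim34a it made 22.6 ± 1.27 CPM in MRL/lpr and 16.4 ± 1.33 in MRL/mpj (SD, n = 3 each). Its share of the pair was 53.4% to 56.9% in MRL/lpr and 16.6% to 19.5% in MRL/mpj. Trim6, at the other side of Trim34a, had a log2 fold change of -0.31 ± 0.30 (SE) and was not called (edgeR adjusted p = 0.54). The pseudogene Trim30e-ps1 was at 0 in 5 libraries and had 9 counts in MRL/mpj replicate 1.

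How much sequence the genes share exactly was counted in their reference transcripts, as the part of all stretches of 100 bases also present in another gene of the cluster. It was 21% for Trim34a, 30.5% for Trim34b, 9.7% for Trim5, 8.0% for Trim12c, 2.6% for Trim12a, 4.4% for Trim30a and 4.6% for Trim30d, and 0% for Trim30b and Trim30c. Most stretches of this length were therefore not shared with another gene of the cluster, also in the pairs with opposite differences. With stretches of 50 bases the part was 56.8% for Trim34b, 39.8% for Trim34a, 29.5% for Trim5 and 28.7% for Trim12c. The rest of the genome was not searched, and the transcripts are those of the reference and not of MRL mice. How reads that fit more than 1 gene were counted is not given in the sources used here, and its part in the differences was not tested.

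TRIM genes outside the list served for comparison. Of 61 other annotated TRIM genes 43 were tested, of which 4 were called higher and 2 lower in MRL/lpr, and their median log2 fold change was 0.03. Over all genes tested, 11.1% were called higher and 9.06% lower. Besides Trim34b, Trim59 was higher by 1.19 (edgeR adjusted p = 0.0026), Trim7 by 1.17 (adjusted p = 0.023) and Trim36 by 0.5 (adjusted p = 0.013) on the log2 scale. Lower in MRL/lpr were Trim55, a muscle TRIM gene, with 0, 0 and 8 counts against 282, 227 and 190 (log2 fold change -6.19, adjusted p = 0.0019), and Trim67 (-1.76, adjusted p = 0.033). The fitted size for Trim55 depends on the 1 MRL/lpr library with counts, and was -10.82 without it. Trim7 lost its call without MRL/lpr replicate 1, MRL/mpj replicate 1 or MRL/mpj replicate 3 (log2 fold changes of 0.97, 1.04 and 1.14) and with a replicate block (1.15). Trim36 lost its call without MRL/mpj replicate 2 (0.45) and with scaling by library size only (0.38). Trim67 lost its call in 4 of the 6 fits that left out a library, with the count of lower genes falling to 1 in the fits without MRL/lpr replicate 2, MRL/mpj replicate 2 or MRL/mpj replicate 3.

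Of 7 TRIM genes elsewhere in the genome that are linked to interferon, 1 was called, beside 20.2% of all genes tested. Pml, the organizer of nuclear bodies, was higher by 0.73 ± 0.18 on the log2 scale (edgeR adjusted p = 0.022), and 4 of the 6 fits that left out a library put its adjusted p between 0.057 and 0.089. Trim25, a ligase of the RIG-I pathway, had 3425, 3558 and 2948 counts in MRL/lpr and 1312, 1074 and 3288 in MRL/mpj. MRL/mpj replicate 3 lay near the MRL/lpr level, so that its log2 fold change of 0.99 ± 0.45 had an adjusted p of 0.22 in edgeR, and without that library it was 1.63 with an adjusted p of 9.2e-05. Trim21, Trim26, Trim56 and Mefv had log2 fold changes of 0.40, 0.56, 0.15 and 0.65, and Trim14 stood at 0.01, a sign that changed with the scaling. None of these 5 was past the threshold in edgeR, while DESeq2 called Trim26 (adjusted p = 0.016) and edgeR called Trim21 without MRL/lpr replicate 2 (adjusted p = 0.021).

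**Figure D5:**
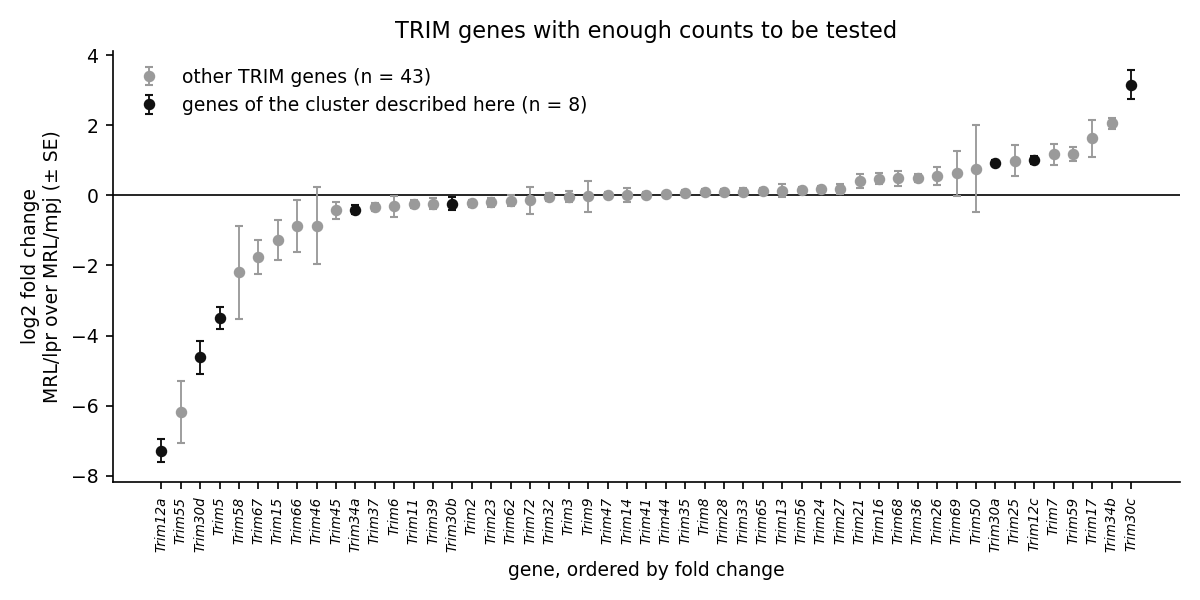
Points give the log2 fold change of MRL/lpr over MRL/mpj (± SE) of each tested TRIM gene, ordered by value. The 8 genes described here are in black and the 43 others, with Trim34b and Trim6 among them, in grey. The genes described here were chosen with this contrast known. Trim12a at -7.28, Trim30d and Trim5 stand at the low end, and Trim30c at 3.15 at the high end. Trim34a (-0.41) and Trim30b (-0.24) lie among the other TRIM genes, and Trim34b (2.05) lies above Trim12c (1.01) and Trim30a (0.93). Most other TRIM genes lie near 0, while Trim55 at -6.19 lies between Trim12a and Trim30d.

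Most of the listed genes of the type I interferon response, to which several cluster genes belong, were higher in MRL/lpr. The list was chosen with earlier results of these data known, so its counts are a description and not a test. Of 30 genes tested, 29 were called higher by edgeR's quasi-likelihood test, with log2 fold changes from 0.54 to 5.2 and a median of 1.76, beside 11.1% of all genes called higher. Ifi44 (5.2), Zbp1 (4.1), Ifit3 (3.3) and Oas3 (3.1) had the highest log2 fold changes among those called. Ifit2 was the 1 gene not called, with 10474, 10618 and 293 counts in MRL/lpr and 1312, 1377 and 1437 in MRL/mpj. Trim30a and Trim12c, at 0.93 and 1.01, lay below that median, and Trim12a, Trim5 and Trim30d lay on the other side of 0.

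Trim30a acts on the route from Toll-like receptors to NF-kB and on the STING and inflammasome routes, and 19 genes of these routes were tested. In edgeR 5 were called higher in MRL/lpr and 1 lower, with a median log2 fold change of 0.09. The shares of all genes tested were 11.1% higher and 9.06% lower. Nlrp3, the inflammasome sensor, was higher by 1.2, Traf6, the ligase above TAB2, by 0.58, Nfkbia, the inhibitor of NF-kB, by 0.5, and Nfkb1, a subunit of NF-kB, by 0.4. Pycard, the inflammasome adaptor, was the gene that fell, with -1.56. The genes for the targets of TRIM30A, Tab2 and Tab3, both stood at 0.02 and were not called. These are RNA levels and say nothing of the amounts of the proteins.

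The genes around the cluster were looked at in the same way. Within 1 Mb of the members, 11 other genes were tested and, besides Trim34b, Cavin3 was called, lower in MRL/lpr by a log2 fold change of -0.87 (edgeR adjusted p = 0.0039). Of all genes tested, 20.2% were called in either direction. Hbb-bs, a beta-globin gene in this window, stood at 0.19 and Fam160a2 at 0.0, neither past the threshold. DESeq2 called 2 genes of the window higher in place of 1.

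By the root mean square difference of centred log2 CPM over the 6 libraries, the genes with profiles most like Trim30a were Rasgef1b at 0.034, Slc11a2 at 0.043, Ptms at 0.044, Lrrfip1 at 0.045 and Egr1 at 0.045. They lie on other chromosomes and had log2 fold changes of 0.85 to 0.98. Fold changes near that of Trim30a follow from choosing the genes by profile. The profiles nearest to Trim30d were less alike, with Gm42944 at 0.38, Cacng1 at 0.47, Rnf186 at 0.51, Dcstamp at 0.52 and Gm36529 at 0.57. Cacng1 and Gm36529 were at 0 in 2 MRL/lpr libraries and had 4 counts in the other.

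Some properties of the libraries differ with the strain and stand beside all these values. Libraries held 45481609 to 48199739 counts in MRL/lpr and 47826322 to 49846634 in MRL/mpj. Mitochondrial genes took 3.06% to 3.49% and 5.84% to 6.38% of them, without overlap between the strains, and their part in the members' values was not tested. Fas itself had 282 to 461 and 362 to 432 counts. The female transcript Xist had 8886 to 11319 counts in MRL/lpr and 27 to 38 in MRL/mpj, while 4 Y-linked genes summed to 8408 to 11783 and 13155 to 15046. The study's methods name female mice, and the near absence of Xist in MRL/mpj and the Y-linked RNA in all 6 libraries go against that. Sex make-up and strain cannot be told apart. MRL/lpr replicate 3 stands apart in that the RNA CT010467.1 took 6.38% of its counts, against at most 0.46% in the others, and the members' log2 fold changes without it were 0.98 for Trim30a, -5.14 for Trim30d, 3.13 for Trim30c, -0.35 for Trim30b, -6.94 for Trim12a, -3.52 for Trim5, 0.99 for Trim12c and -0.35 for Trim34a.

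All 10 microglial markers were over the floor in all libraries and summed to 22153 to 24682 CPM in MRL/lpr and 25503 to 26204 in MRL/mpj. The 6 T cell markers summed to 11.1 to 17.1 and 2.5 to 2.92 CPM with 5 of 6 called higher, and the 6 B cell markers to 23.6 to 27.1 and 9.65 to 11.4 CPM with 1 higher. The 6 monocyte markers summed to 569 to 650 and 564 to 591 CPM and the 6 neutrophil markers to 549 to 617 and 430 to 484 CPM. Cd3e, Trac, Pax5 and Ms4a1 were each at 0 in 1 MRL/mpj library, and Pax5 also in 1 MRL/lpr library. The 5 markers of choroid plexus and ependyma summed to 339 to 354 and 1006 to 1085 CPM, with 3 called lower. Their part in the members' values was not tested, and fewer cells of a type and less RNA per cell cannot be told apart in such libraries.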

How the data were processed

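RNA-seq libraries of CD11b-selected microglia from MRL/lpr and MRL/mpj mice (3 each) were analysed. The submitters' processing notes name cutadapt 1.9.3, HISAT2 2.0.4, Cufflinks, Cuffdiff 2.2.1 and GRCm38. The authors deposited raw gene counts, in whole numbers and not normalized, and FPKM values per library. The counting tool and annotation are not given in the sources used here. Symbols and positions came from GENCODE M21 and promoter windows from RefSeq (GRCm38.p6). Strains were compared on the counts with edgeR 4.0.16 in R 4.3.3 (filterByExpr with a minimum count of 10 and total of 15, TMM, robust quasi-likelihood test, Benjamini-Hochberg adjustment over 19554 genes, called at an adjusted p under 0.05). The common biological coefficient of variation was 0.26. Sequences were compared with Biopython 1.88. DESeq2 1.42.0, RLE, library-size scaling, no filter, counts divided by 4, non-robust dispersion, a replicate block, the ratio of mean FPKM for the members and leaving out each library were alternatives. The members and all lists were chosen with earlier results of these data known. Named were all members and cluster relatives, of other TRIM, interferon and pathway genes the 4 highest and 4 lowest called, 7 interferon-linked TRIM genes, neighbours called, and the 5 nearest profiles. Ifit2, Tab2, Tab3, Hbb-bs and Fam160a2 were named after their values were seen.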

Additional observations from a re-analysis of the deposited data

How the results depend on the processing

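In all 14 alternatives tried for each member the 8 fold changes kept their signs, which is a description, since the members were chosen with this contrast known. Also as a description, 3 members were past the threshold as higher in each alternative fit. Those past it as lower numbered 3, but 4 with library size only. Over all genes 2178 were called higher and 1772 lower, against 1634 and 2790 with library size only, and the number lower ran from 1177 to 1971 when a library was left out. DESeq2 called 4408 genes in all, and edgeR 3950. Other TRIM genes called lower numbered 2, against 1 to 3 without single libraries, and those called higher 4, against 3 to 6. DESeq2 called 2 chromosome 7 neighbours higher in place of 1. The log2 fold change of Trim14 changed sign, to -0.12 with library size only and -0.017 with the replicate block, and ran from -0.21 to 0.17 when a library was left out. The cause was not tested. Same-numbered libraries did not deviate together (correlations of -0.041, -0.020 and -0.033), so the numbers were not taken to pair them. A replicate block left 3063 genes called and 1 other TRIM gene lower, Trim55. In MRL/lpr, depth limits Trim12a most, at 2 to 10 counts.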
